A study of Bos taurus with 13 samples.

Results

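Of 16595 bovine genes measured, 68 had mean normalised RNA values that differed little between groups under heat and over time in culture. These are described here as candidate reference genes. They were chosen from the measured values, by estimates of group means, which do not show that the underlying levels are equal. A gene belonged to the set when its mean normalised value over the 13 libraries was from 1000 to under 20000 and when 4 differences between group means, taken on the scale log2(value + 1), were each under 0.1 in size. A difference of 0.1 on that scale is a small change in level, well under a doubling. In that range of mean values there were 4209 genes, so the set held 1.62% of them. All 68 passed the filter on low values that was used for tests over 13684 genes.

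The cells were mesenchymal stem cells, adherent stromal cells, in primary culture from umbilical cord of Bos taurus at early passages (P2 to P4). Heat (HS) was 40.5 °C, starting a day after seeding, and the normothermic (NT) temperature was 37 °C, both in low glucose medium with fetal bovine serum. The groups were ShortNT (37 °C for 6 h, n = 3), ShortHS (40.5 °C for 6 h, n = 3), LongNT (37 °C for 3 days, n = 2), LongHS (40.5 °C for 3 days, n = 3) and ShortHS_Recovery (40.5 °C for 6 h and then 37 °C for 66 h, n = 2). The series text gives the recovery as 3 days where the sample titles give 66 h. The groups are called here the 6 h control, 6 h heat, 3-day control, 3-day heat and recovery groups. The labels give replicate numbers but no animals, donors or culture dates, so p-values measure the spread between these libraries, which may be technical. The cell type label could not be set against its marker genes, because the deposited table gives Ensembl identifiers only and none of them could be paired with a symbol here.

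A reference gene, also called a housekeeping or normaliser gene, is a transcript whose level per sample is taken as constant, so that other transcripts can be expressed relative to it in quantitative PCR. Heat is a hard case for this choice. In heated cells the heat shock transcription factors raise chaperone genes while transcription and translation of many others are reduced, and adherent stromal cells also change their growth and matrix programmes as a culture becomes dense. A gene suited to such work should hold its level against both, and it should vary little between replicate cultures. Because no symbols were available, the gene products behind the 68 identifiers are not described, and the genes are compared by their values.

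The total of reads recovered per library ran from 14859428 to 39117065. The third replicate, present in both 6 h groups and under 3-day heat, stood apart from replicates 1 and 2. No such library was among those of the 3-day control or the recovery. The deviations of libraries from their group means over the tested genes correlated between same-numbered libraries of the groups with 3 replicates, with r from 0.274 to 0.721. Replicates 1 and 2 of different groups correlated with r from 0.270 to 0.479 when their numbers differed, and replicate 3 with replicate 1 or 2 with r from -0.618 to -0.347. Deviations within a group cancel, so a shift of replicate 3 by itself makes replicates 1 and 2 alike and opposite to it. The correlations thus set replicate 3 apart but cannot show whether replicates 1 and 2 are paired by number. Membership, some counts of called genes and the median within-group SD are therefore also given without it. SDs, coefficients of variation and ranks over the 13 libraries include it.

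The limits differed in how many genes they removed. Of the 4209 genes in the range, 1171 (27.8%) were under 0.1 for 6 h heat against its control, and 789 (18.7%) for 3-day heat against its control. The limit was met by 2008 genes (47.7%) for recovery against the 3-day control and by 989 (23.5%) for the 3-day against the 6 h control. Both heat comparisons together left 300 genes. Adding the limit on recovery left 172, and adding the limit on time at 37 °C left the 68. The limit on time, placed last, thus removed more of those 172 genes than it kept. So did the limit on 3-day heat when placed last, from 178 genes to 68, and that on 6 h heat, from 152 to 68. The limit on recovery, placed last, took 102 genes to 68. The 3-day control enters every comparison but the 6 h one, and the 6 h control enters the 6 h heat and the time comparisons, so the limits are not independent. In bulk RNA, fewer cells of a type and less RNA per cell cannot be told apart. A steady normalised value in the culture does not show a steady level in each cell. The values are scaled per library, so a rise or fall shared by most genes would be taken out. A member is thus steady relative to the other genes.

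**Figure D1:**
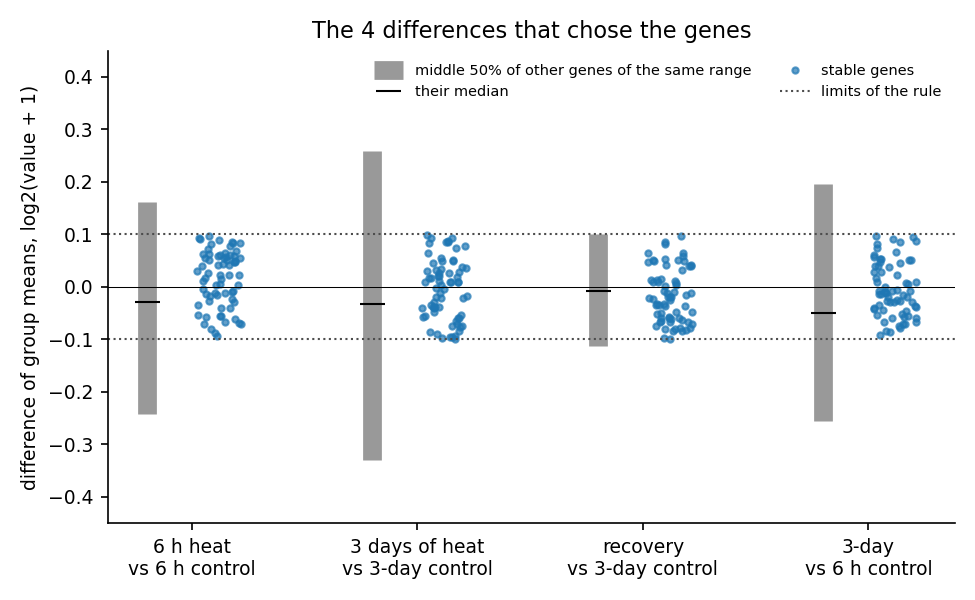
Differences of group means on the log2(value + 1) scale for the 4 comparisons of the rule. Blue points are the 68 stable genes, grey bars the middle 50% of the 4141 other genes of the same range with their median, and dotted lines the limits at 0.1 and -0.1. The grey bars reach past the limits in the heat and time comparisons and nearly coincide with them for recovery.

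As the rule requires, the 68 genes lay inside the limits, and their differences describe the choice rather than test it. The median size of the difference was 0.053 for 6 h heat, 0.043 for 3-day heat, 0.048 for recovery and 0.042 for time. In the 4141 other genes of the range these medians were 0.20, 0.29, 0.11 and 0.23. The largest of a gene's 4 differences had a median of 0.082 in the set, so most members lay nearer to the limit than to 0. It was found in the 6 h heat comparison for 17 genes, in the 3-day heat comparison for 17, in recovery for 18 and in time for 16. No comparison was alone in setting the edge of the set.

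No member was past an adjusted p of 0.05 in limma in any of the 4 comparisons, where 31.5% of tested genes were called for 6 h heat, 40.4% for 3-day heat, 0.797% for recovery and 25.3% for time. These backgrounds moved with the libraries and the fit. The 109 genes called for recovery became 778 with the replicate number as a block, 1803 in replicates 1 and 2 alone and 1 without replicate 1 of the recovery group. Without replicate 1 of the 3-day control, the 3467 called for time became 872 and the 5531 for 3-day heat became 3335. At an unadjusted p of 0.05 in limma the count of members was also 0 in each comparison, and edgeR and DESeq2 on the recovered reads called 0 at their adjusted p. Since the same differences chose the genes, nothing is read from these counts. A small estimated difference is also not a narrow one. The 95% interval of a member's difference had a median half-width of 0.19 for 6 h heat, 0.21 for 3-day heat and for time, and 0.23 for recovery, which compared 2 libraries with 2. No member had an interval that stayed inside 0.1 on either side in even 1 comparison. All 4 intervals lay within 0.2 on either side for 4 members, within 0.3 for 35 (51.5%) and within 0.5 for 66. The rule therefore fixed the estimates more closely than these libraries fix the underlying levels.

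The genes just inside the limit were ENSBTAG00000016977, ENSBTAG00000015473 and ENSBTAG00000023462, whose largest differences were 0.098, 0.099 and 0.099. The nearest outside were ENSBTAG00000013033, ENSBTAG00000012239 and ENSBTAG00000014161, at 0.1005, 0.1005 and 0.1007. Of these 6, ENSBTAG00000014161 had the smallest SD over the 13 libraries, 0.060, although it was not in the set. A neighbour on either side of the limit was thus not told apart by its spread.

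The limits were set on 4 of the possible pairs of groups, and small differences could add up over the others. Between 3-day heat and 6 h heat, 53 of the 68 genes (77.9%) were under 0.1. Between 3-day heat and recovery it was 54 (79.4%), and between recovery and 6 h heat 45 (66.2%). Each of these differences is made up of limited ones, so the counts follow in part from the choice. The share in other genes was not counted. The range from the lowest to the highest group mean had a median of 0.11 and reached 0.27 in ENSBTAG00000016977. Its normalised values were 1023, 1043 and 976 in the 6 h control and 1145, 1034 and 1066 in the 6 h heat group. They were 979 and 940 in the 3-day control, 903 and 890 in the recovery group, and 1056, 970 and 1047 in the 3-day heat group. The recovery libraries lay below every other library of this gene, and the 6 h heat libraries overlapped the 6 h control and the 3-day heat group. Each step was within the limit, while recovery lay 0.27 below 6 h heat.

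The rule set no limit on the spread over the 13 libraries. The SD of log2(value + 1) over the libraries ran from 0.040 to 0.46, with a median of 0.094, against a median of 0.25 in the other genes of the range. The highest value of a member exceeded its lowest by a factor of 1.25 in the median, and by a factor from 1.09 to 2.70 in all. This factor was above 1.5 in 4 members. It was above 1.5 in 72.9% of the other genes of the range. The rule used the means of these same libraries, so the contrast with other genes follows in part from the choice.

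**Figure D2:**
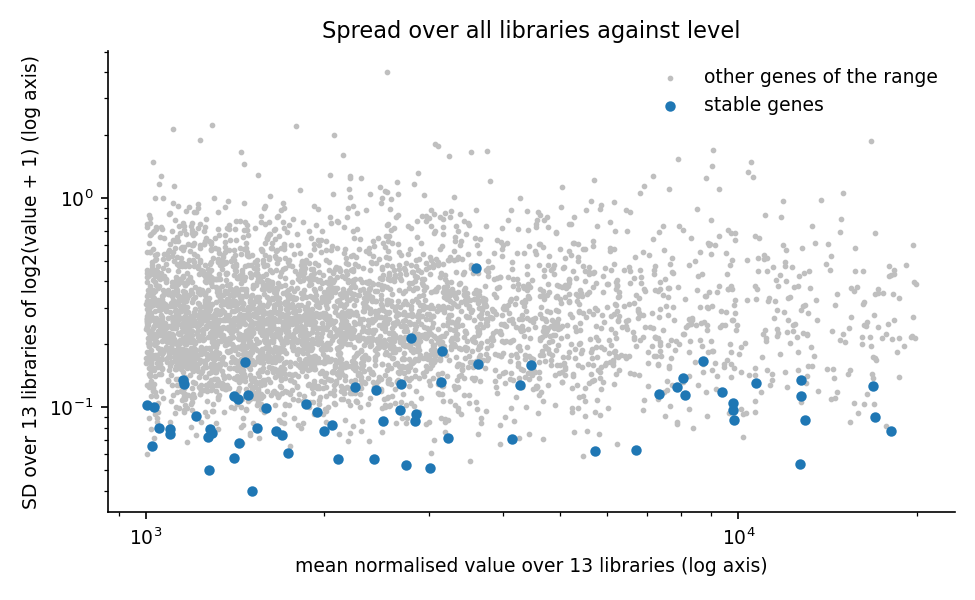
SD over the 13 libraries of log2(value + 1) against the mean normalised value, both on log axes, for the 4209 genes of the range. The 68 stable genes (blue) lie mostly along the lower edge of the other genes (grey), with SDs from 0.040 to 0.46, and 1 of them lies among the more variable genes.

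Small spread and small group differences did not pick the same genes. Of the 68 genes in the range with the smallest SD over the libraries, 26 (38.2%) were members, and the other 42 had at least 1 difference of 0.1 or more. Among the members, 53 (77.9%) were in the lowest 10% of the range by this SD. The spread within groups, which the rule did not limit, was closer to that of other genes. The residual SD around the group means had a median of 0.101 in the members and 0.112 in the other genes of the range, and 27 members (39.7%) were above the median of the range. Counting of reads alone would give the members an SD with a median of 0.029.

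The spread within groups was also taken group by group. The 3-day control and recovery groups hold 2 libraries and no replicate 3, so their SDs cannot be ranked against those of the groups of 3. In the median over members, the SD was 0.10 in the 6 h control, 0.099 in the 6 h heat group, 0.096 in the 3-day control, 0.057 in the 3-day heat group and 0.046 in the recovery group. For the other genes of the range these medians were 0.114, 0.104, 0.078, 0.086 and 0.045 in the same order. The median for members was above that for other genes in the 3-day control and, slightly, in the recovery group, and below it in the other 3 groups. These are descriptions, since the group means that enter the rule come from the same libraries.

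Members were found at every level of the range, with mean normalised values from 1005 to 18075 and a median of 2596, against 1956 in the other genes. From 1000 to under 2000 the set held 28 of 2147 genes (1.30%), and from 2000 to under 5000 it held 21 of 1447 (1.45%). From 5000 to under 10000 it held 11 of 423 (2.60%), and from 10000 to under 20000 it held 8 of 192 (4.17%). The share was higher in the upper bins, which hold few genes. The normalised value is not divided by transcript length, so it does not rank transcripts by abundance per molecule. The members with the highest mean values were ENSBTAG00000015831 (18075), ENSBTAG00000015473 (17032) and ENSBTAG00000009908 (16865). Those with the lowest were ENSBTAG00000016977 (1005), ENSBTAG00000006200 (1022) and ENSBTAG00000014081 (1033).

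**Figure D3:**
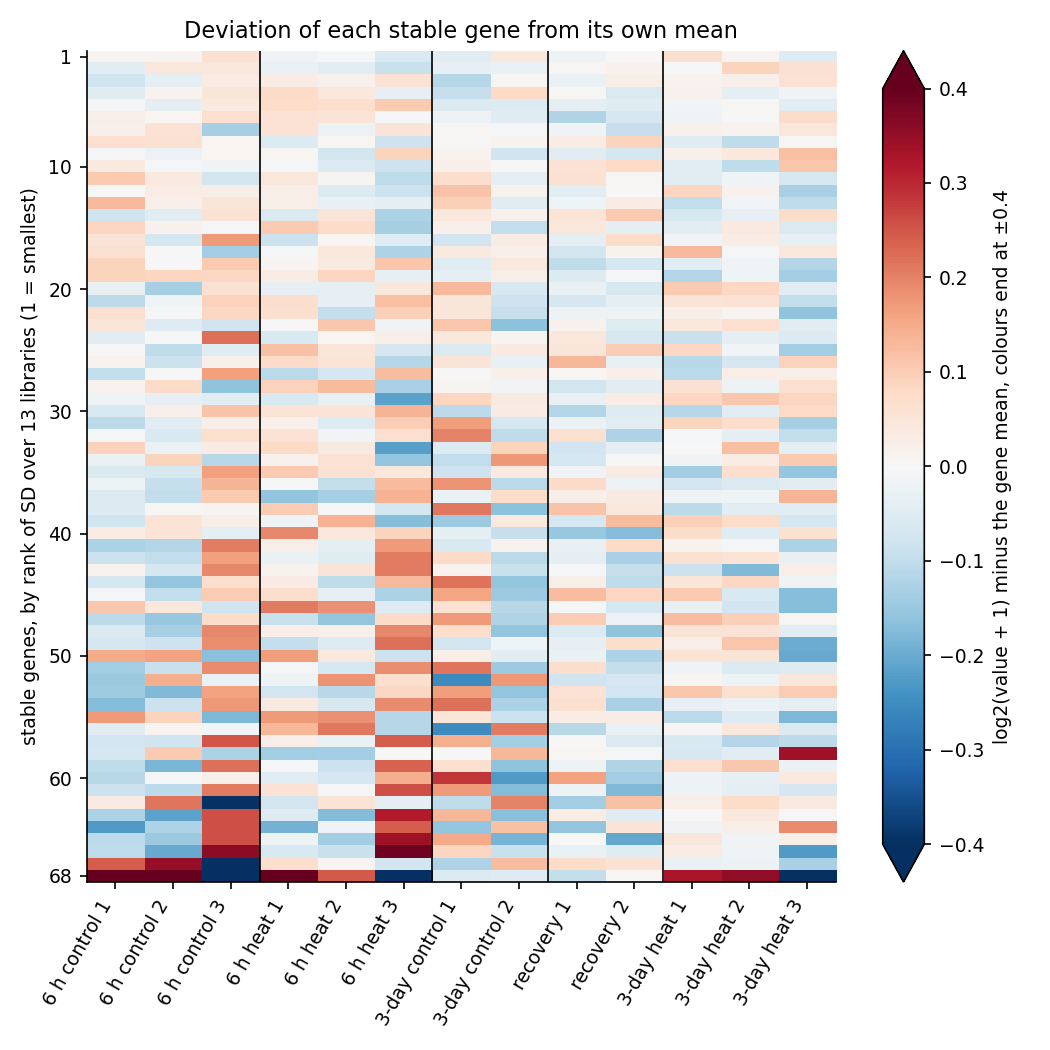
Deviation of each of the 68 stable genes from its own mean over the 13 libraries on the log2(value + 1) scale. Each row is a gene, ordered by SD from 1 (0.040) to 68 (0.46), and each column a library, with lines between groups. Colour deepens toward the bottom rows and in the replicate 3 columns.

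The gene with the smallest spread was ENSBTAG00000003570, with a mean normalised value of 1510 (CV 2.76%). Its values were 1521, 1520.3 and 1574 in the 6 h control and 1495, 1501 and 1447 in the 6 h heat group. They were 1462 and 1556 in the 3-day control, 1489.7 and 1507 in the recovery group, and 1578, 1520.1 and 1458 in the 3-day heat group. The 6 h heat libraries were all below those of the 6 h control, by 0.05 on the log2 scale (95% interval half-width 0.12). The recovery libraries also lay below those of the 6 h control, and the other pairs of groups overlapped. The highest library was 1.09 times the lowest, and the SD of 0.040 was close to the 0.038 that counting of reads alone would give.

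ENSBTAG00000011811 had the smallest largest difference of the set, 0.024. Its values were 2661, 2777 and 2842 in the 6 h control and 2898, 2830.3 and 2689 in the 6 h heat group. They were 2577 and 2905 in the 3-day control, 2760.4 and 2639.5 in the recovery group, and 2784, 2679 and 2725 in the 3-day heat group. The lowest and the highest of its 13 values were both in the 3-day control, so the agreement of its group means rested on a pair of libraries on either side of the mean.

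ENSBTAG00000016956 had the smallest residual SD of the set, 0.025, at a mean value of 12708. Its values were 12654, 12395 and 13049 in the 6 h control and 13358, 13309 and 13646 in the 6 h heat group. They were 12209.8 and 12239 in the 3-day control, 12400.3 and 12289.7 in the recovery group, and 12603, 12732 and 12316 in the 3-day heat group. The 6 h heat libraries lay above all other libraries, by 0.08 on the log2 scale over the 6 h control (SE 0.053, limma adjusted p 0.273). Under upper quartile, TMM and quantile scaling, and without replicate 3 of the 6 h control, this gene did not meet the rule. With upper quartile scaling its largest difference was 0.115.

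The other members among the 12 with the smallest SD over the libraries were ENSBTAG00000003215, ENSBTAG00000019986, ENSBTAG00000006099, ENSBTAG00000020664, ENSBTAG00000012873, ENSBTAG00000002404, ENSBTAG00000019526, ENSBTAG00000011284 and ENSBTAG00000006200. Their SDs ran from 0.050 to 0.066 and their mean normalised values from 1022 to 6710. Their coefficients of variation were between 3.49% and 4.52%. Small spread is how these genes were taken.

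Membership depended on single libraries. When 1 library was left out at a time, between 45 and 75 genes met the rule, and between 24 and 61 of the 68 members were among them. The fewest members were kept without replicate 2 of the 3-day control (24, 35.3%), without replicate 1 of that group (29, 42.6%) and without replicate 3 of the 6 h control (36, 52.9%). Without any of the other 10 libraries, 50 or more were kept. The 3-day control has 2 libraries and enters 3 of the 4 differences. For 13 members (19.1%) replicate 1 of the 3-day control was the library farthest from the gene's mean, against 7.70% of the other genes of the range. Replicate 2 of that group was farthest for 2 members (2.94%, against 2.87%). A replicate 3 library was farthest for 40 members (58.8%, against 53.8%), among them 16 for 6 h heat and 14 for the 6 h control.

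Only 5 members met the rule whichever single library was left out. Of these, 4 also met it under upper quartile, TMM and quantile scaling, with the replicate number as a block, with a term for replicate 3, and in replicates 1 and 2 alone. None of the 4 met a limit of 0.05. These 4, singled out after their values were seen, were ENSBTAG00000003570, ENSBTAG00000020664, ENSBTAG00000019526 and ENSBTAG00000000948. The fifth, ENSBTAG00000006099, met the rule in all of these except quantile normalization. The widest 95% interval of each of these 4 genes had a half-width from 0.15 to 0.18 on the log2 scale.

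ENSBTAG00000020664 had values of 2137, 2195 and 1924 in the 6 h control and 2193, 2075 and 2185 in the 6 h heat group. They were 2116 and 2098 in the 3-day control, 2087 and 1978 in the recovery group, and 2132, 2129.6 and 2176 in the 3-day heat group. The lowest library was replicate 3 of the 6 h control. The 3-day heat libraries lay above those of the 3-day control, by 0.03 on the log2 scale, and both groups lay above the recovery libraries. The 6 h groups overlapped each other and all 3 of these groups.

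ENSBTAG00000019526 had values of 5873, 5695 and 5662 in the 6 h control and 5697, 5506 and 5405 in the 6 h heat group. They were 5806 and 5722 in the 3-day control, 5959.7 and 6043 in the recovery group, and 5559, 5334 and 6184 in the 3-day heat group. The 3-day heat group held both the lowest and the highest library. The recovery libraries lay above those of the 3-day control by 0.06 on the log2 scale (95% interval half-width 0.17). They also lay above all 6 h heat libraries, by 0.12 on the log2 scale, for a pair of groups on which the rule set no limit.

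ENSBTAG00000000948 had values of 3919, 4022 and 4310.3 in the 6 h control and 3977, 4295 and 3799 in the 6 h heat group. They were 4271 and 4193 in the 3-day control, 4307 and 4457 in the recovery group, and 3965, 4049 and 4363 in the 3-day heat group. The highest library was in the recovery group and the lowest in the 6 h heat group, a factor of 1.17. All recovery libraries lay above all 6 h heat libraries, by 0.12 on the log2 scale, again without a limit in the rule. That difference was 0.02 in ENSBTAG00000003570 and -0.08 in ENSBTAG00000020664. The mean log2 value of the 4 genes, taken per library, corresponded to between 0.963 and 1.03 times its average, with an SD of 0.024 on the log2 scale. Such a small spread follows in part from the choice, since the 4 genes were kept for small differences in these same libraries.

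**Figure D4:**
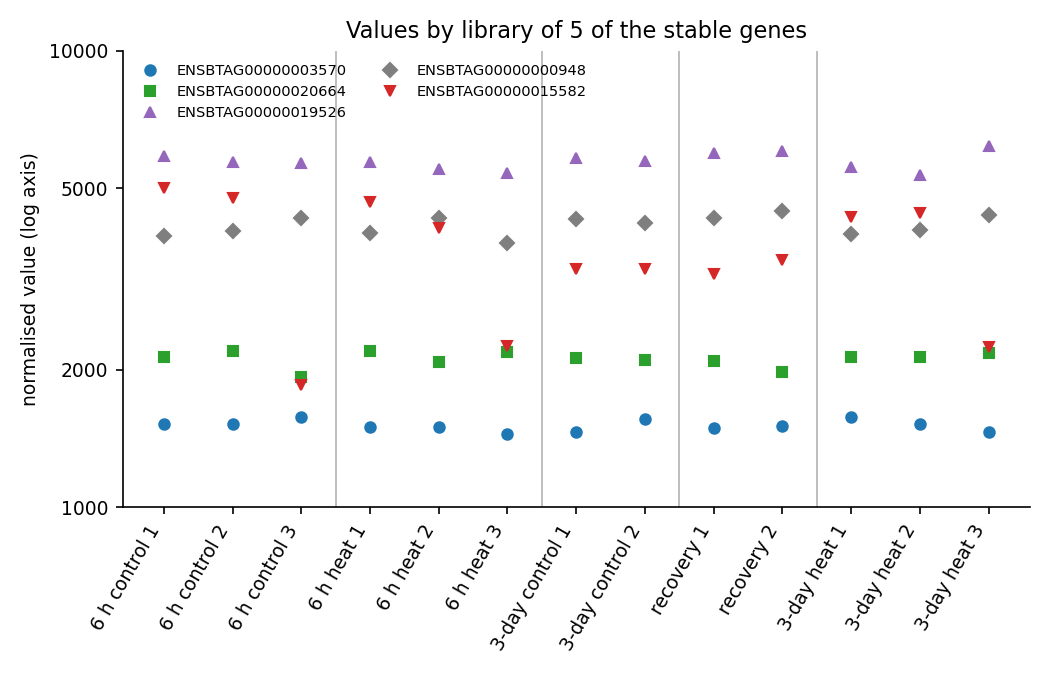
Normalised values by library, on a log axis, of the 4 genes that met the rule without any single library and under each scaling and replicate setting tried, and of ENSBTAG00000015582 (red), which met it on group means. The 4 genes stay within factors from 1.09 to 1.17 over the libraries, while ENSBTAG00000015582 spans a factor of 2.70 with its lowest values in replicate 3.

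ENSBTAG00000015582 shows how a gene can meet the rule and still vary. Its values were 4991, 4768 and 1848 in the 6 h control, 4661, 4094 and 2249 in the 6 h heat group, and 4330.3, 4417 and 2238 in the 3-day heat group. They were 3318 and 3332 in the 3-day control and 3235 and 3475 in the recovery group. In each group with 3 libraries, replicate 3 was the lowest, below the 3-day control, and replicates 1 and 2 were above it. The group means then fell within 0.09 of each other on the log2 scale. With a term for replicate 3 the difference of 3-day heat from its control was 0.44 (limma adjusted p 0.00232), and that of the 3-day from the 6 h control was -0.46 (limma adjusted p 0.00311).

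Replicate 3 was compared with replicates 1 and 2 within groups in a limma fit with the 5 groups and a term for replicate 3. The rule used no such contrast, but it bounded it in part, because the 3-day control holds no replicate 3 and a shift of replicate 3 enters the differences of 3-day heat and of time. At an adjusted p of 0.05 in limma, 11 of the 68 members (16.2%) were called, 6 higher and 5 lower in replicate 3. Over all tested genes 31.4% were called, 15.5% higher and 15.9% lower, and in the other genes of the range 38.4%. The median size of the shift was 0.10 in the members and 0.13 in the other genes of the range. When only the 6 h groups were fitted, a choice made after seeing the data, 29 of the 68 members (42.6%) were called, against 35.9% of 13253 tested genes, and without replicate 3 of the 3-day heat group 27 were, with 4781 of all genes. The share of members was thus below both backgrounds in the fit over all groups. Within the 6 h groups it was above that of all tested genes, but the share in other genes of the range was not counted there. Neither difference was tested. The count was 7 without replicate 1 of the 6 h control, with 3596 of all genes called, and 7 without replicate 3 of the 6 h heat group, with 3129. It was 6 without replicate 3 of the 6 h control, with 3248 of all genes called, where the fit over all libraries called 4301.

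**Figure D5:**
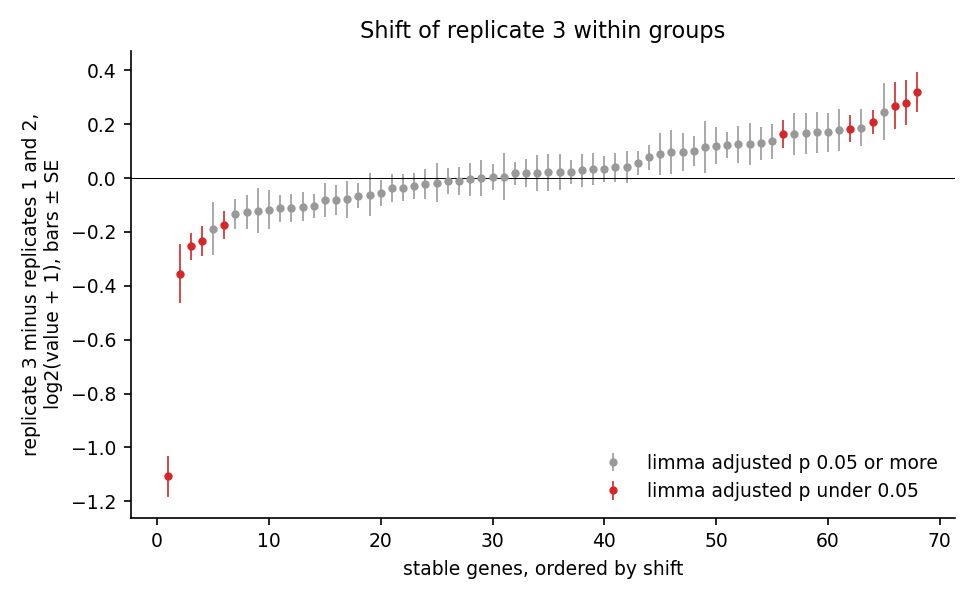
Replicate 3 minus replicates 1 and 2 within groups on the log2(value + 1) scale for the 68 stable genes in order of the shift, with bars of 1 SE. Red marks the 11 genes with a limma adjusted p under 0.05, 6 above 0 and 5 below, and the lowest point is ENSBTAG00000015582 at -1.11.

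The largest falls in replicate 3 were those of ENSBTAG00000015582 (-1.11, SE 0.075, limma adjusted p 1.94e-07) and ENSBTAG00000051316 (-0.36, SE 0.11, limma adjusted p 0.0242). In ENSBTAG00000051316 the shift came mostly from 1 library. Its values in the 6 h control were 3284, 3536 and 1897, while in the 6 h heat group they were 2916, 2791 and 2634. The low library was replicate 3 of the 6 h control. Without it, the 6 h heat difference of this gene was -0.29 (limma adjusted p 0.0183), where over all libraries it was -0.01.

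The largest rises were those of ENSBTAG00000014947 (0.32, SE 0.075, limma adjusted p 0.00552) and ENSBTAG00000021421 (0.28, SE 0.084, limma adjusted p 0.0213). ENSBTAG00000014947 had values of 1249.99, 1344 and 1748 in the 6 h control, 1282, 1447 and 1728 in the 6 h heat group, and 1449, 1487 and 1665 in the 3-day heat group. Replicate 3 was the highest of the 3 in each of these groups, and the groups overlapped. ENSBTAG00000021421 had 3311, 3117 and 4329.8 in the 6 h control and 3489.9, 3206 and 4505 in the 6 h heat group, but 3619, 3724 and 3625 in the 3-day heat group. Its high replicate 3 was thus seen at 6 h and not after 3 days of heat. Of the 11 called members, 8 had replicate 3 at the same end in all 3 groups. The call itself favours such genes, so this is a description. Over all members, replicate 3 was the highest in all 3 groups for 8 and the lowest for 9. These orders were not counted in other genes, so they are not read as a trait of the members.

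The rule used all 13 libraries. For a reading in libraries outside the choice, it was applied to replicates 1 and 2 alone and the chosen genes were then read in replicate 3. This chose 57 genes, of which 37 were among the 68 (64.9% of the 57, 54.4% of the 68). Between the replicate 3 libraries of 6 h heat and 6 h control, the median size of their difference was 0.085 on the log2 scale, and 31 of the 57 (54.4%) were under 0.1. For the other genes of the range it was 0.22, with 24.9% under 0.1. This compares a single library with a single library, so it has no test, and it bears on the 6 h heat comparison alone. The libraries share 1 normalisation, and the range and limits were set with all libraries known.

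The mean of the 68 genes in each library describes the choice, since the rule used the same values. The mean log2 deviation of the members in a library, expressed as a factor, ran from 0.978 to 1.03, and they held between 1.21% and 1.38% of the summed values. The lowest factor was in replicate 3 of the 3-day heat group and the highest in replicate 3 of the 6 h control. Within a library the members scattered around this factor with an SD from 0.065 in replicate 1 of the recovery group to 0.19 in replicate 3 of the 6 h control. Between 30 and 59 of the 68 genes were within 0.1 of their own mean in a library.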

How the data were processed

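Polyadenylated RNA was sequenced in 13 libraries of 5 groups. The submitters' processing notes name cutadapt, STAR, HTSeq, DESeq and the build ARS-UCD1.2, with no versions or roles. Annotation, strand setting and batches are not given in the sources used here. The authors deposited 1 signal value per gene and library, marked as normalised per the file headers, and the name of the deposited table credits DESeq. In each library 100% of values were whole multiples of 1 step within 0.01 reads, so reads were recovered. Every gene listed had at least 6 over all libraries. The reference table is of another assembly and matched 0 of the 16595 identifiers. Gene lists, the panel of common reference genes and cell markers were therefore not analysed here, and no sequences or coordinates are given.

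The rule was applied to log2(value + 1). Genes with a value of at least 10 in at least 2 libraries (13684) entered a limma fit (version 3.58.1, R 4.3.3) with a mean-variance trend, 5 group means over all 13 libraries (8 residual degrees of freedom) and two-sided tests with Benjamini-Hochberg adjustment. The replicate 3 fit added 1 term. Intervals are limma's moderated 95% intervals. Whether replicate numbers pair the libraries was checked from deviations from group means. Among the groups with 3 replicates r was from 0.274 to 0.721 for 9 same-numbered pairs. With replicates 1 and 2 crossed it was from 0.270 to 0.479. Replicate 3 was set apart by its number, while this check cannot show whether replicates 1 and 2 are paired. For the other 14 same-numbered pairs r was from -0.048 to 0.126. edgeR 4.0.16 and DESeq2 1.42.0 were run on the recovered reads. The limma procedure was tested on simulated data. For 6 h heat the simulated libraries were independent, without the replicate 3 shift seen here, so that test does not cover the shift. The filter was applied again when libraries were left out.

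The members, lists and settings were chosen with earlier results of these data known. The rule for named genes took the 12 members of smallest SD over the libraries, the 3 highest and 3 lowest in level, the 3 largest replicate 3 shifts in each direction, and the 3 genes on each side of the limit. The 4 genes kept under other scalings and replicate settings, and members called under an alternative, were added after their values were seen.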

Additional observations from a re-analysis of the deposited data

How the results depend on the processing

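The set had 68 genes, from 57 to 70 under other pseudocounts, scalings and replicate terms (pseudocount 5, 68, all of them members; upper quartile, 60 with 43 members; TMM, 65 with 51; quantile, 70 with 41; replicates 1 and 2, 57 with 37). With the replicate block 60 genes met the rule, 44 of them members. A limit of 0.15 gave 229 genes and a limit of 0.05 gave 4. Leaving out single libraries gave from 45 to 75 genes, the lowest without replicate 2 of the 3-day control. No scaling moved the median of all tested genes by more than 0.046 on the log2 scale.

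Genes called after recovery numbered 109, and 778 with the replicate block, 795 with a term for replicate 3, 1803 in replicates 1 and 2, 311 in DESeq2, 103 in edgeR, and from 1 (without replicate 1 of the recovery group) to 162 without single libraries, with 10 without replicate 2 of the 3-day control, 17 without replicate 2 of the recovery group, and 45 to 56 without replicate 1 or 2 of either 6 h group or of 3-day heat. Time at 37 °C gave 3467, 5938 in replicates 1 and 2, and 872 (without replicate 1 of the 3-day control; 2302 without replicate 2) to 3931 without single libraries. For 6 h heat, 4311 became 4356 in edgeR, 4565 in DESeq2 and 6107 with the block, and from 3227 to 4554 without single libraries. For 3-day heat, 5531 became 5538, 5658 and 7064, and from 3335 (without replicate 1 of the 3-day control) to 6238. Members with a replicate 3 shift numbered 11, 17 under quantile normalization, 29 in the 6 h groups only, 13 with the block, and from 6 to 27 without single libraries. All genes with this shift numbered 4301, 4267 under quantile normalization and 4267 with the block. They numbered 4753 of 13253 in the 6 h groups only, and from 3129 to 4781 without single libraries. The median within-group SD of members was 0.101, 0.081 with the block, 0.067 in replicates 1 and 2, and from 0.093 to 0.107 without single libraries.

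In the 4 comparisons, 0 members were called by edgeR or DESeq2. ENSBTAG00000015582 was called for 3-day heat and for time with the block, with a term for replicate 3 and in replicates 1 and 2, where ENSBTAG00000051316 and ENSBTAG00000024781 were also called for time and the former for 6 h heat. ENSBTAG00000004230 was called for 3-day heat without replicate 2 of the 3-day control. For counts over all genes, the term for replicate 3, replicates 1 and 2 alone, TMM, quantile normalization and the 6 h groups alone were chosen after seeing the data, as was the count of members called in the 4 comparisons under every alternative. The causes of these changes were not tested. The planned counts of common reference genes were not run. Differences near the limit could not be told from 0 with these libraries. This held for 6 h heat, with 3 libraries per group, and for comparisons with the recovery and 3-day control groups of 2.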
